A study of Mus musculus with 9 samples.

Results

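Sirtuins are protein deacylases that spend NAD, and the genes described here are a group that makes, spends or breaks down this cofactor: Sirt1, Sirt2, Sirt3, Sirt7, Nampt, Parp1 and Cd38. They were taken by symbol, with every probe set of each, from a table of log2 signals in which 12393 genes had a probe set of their own. Of the 7 genes, 6 were measured, by 9 probe sets, and Cd38 was not analysed here. A log2 difference of 1 is a 2-fold difference in signal.

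RNA came from mouse regulatory T cells (Tregs), which restrain other immune cells, and was read on 9 Affymetrix arrays. The cells were selected with magnets by their surface CD4 and CD25, and the strain is given as C57BL6 for every group. Wild type cells form 1 group of 3 arrays, called wild type. The CD4-cre group, also 3 arrays, carries a conditional Sirt1 knockout through a CD4 Cre recombinase, which acts in T cells at large. The Foxp3-cre group, again 3 arrays, carries a conditional Sirt1 knockout through a Foxp3 Cre recombinase, which acts where the Treg factor Foxp3 is expressed. Age, sex, a Cre-only control and the part of Sirt1 that Cre removes are not stated in the sources at hand. Nothing in the labels says that the arrays of a group came from separate animals, so a p-value here reflects how much these arrays vary, and that variation may be technical. In bulk RNA, fewer cells of a type and less RNA per cell cannot be told apart.

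The NAD-spending sirtuins remove acetyl groups from proteins and release nicotinamide, so their activity is tied to how much NAD a cell holds. Nampt, nicotinamide phosphoribosyltransferase, begins the route by which nicotinamide is recycled to NAD and is the rate-limiting enzyme of that route. Parp1 spends NAD to attach ADP-ribose chains to proteins at damaged DNA, and Cd38 splits NAD at the cell surface. In T cells Sirt1 is known to deacetylate Foxp3, which favours the breakdown of that protein.

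The label of the cells was checked against its markers. The T cell list (7 measured markers) had a mean log2 signal of 10.65 to 10.78 over the 9 arrays. Il2ra, which encodes CD25, lay between 8.39 and 8.79, and Cd4 between 8.69 and 9.23. Foxp3 read 9.16, 9.68 and 9.34 on the wild type arrays and 9.68, 9.69 and 9.62 on the CD4-cre arrays, but 2.67, 3.38 and 2.83 on the Foxp3-cre arrays. The defining transcript of the labelled cell type was thus at the low end of the signal range on all 3 Foxp3-cre arrays. Of the 7 measured Treg markers, Foxp3 alone passed in Foxp3-cre against wild type, and Ctla4, an inhibitory receptor of Tregs, read 10.15 to 10.38 there beside 9.97 to 10.43 in wild type. Wild type replicate 2 stood apart: it correlated at 0.982 to 0.987 with the other arrays, which correlated at 0.992 or more with each other. Its beta-actin signal at the 5' end was lower than at the 3' end by a difference of -1.53, against -0.68 to -0.45 on the other arrays, and for Gapdh by -1.10 against -0.36 to -0.05. Results that moved without it are also given without it.

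The promoters of Sirt1, the targeted gene, and of Sirt7 are shown because these genes ran together over the arrays and were lower in Foxp3-cre once wild type replicate 2 was left out. Each is the 250 bases before the annotated start, from RefSeq on the build GRCm38.p6, on the minus strand, at chr10:63339036-63339285 for Sirt1 and chr11:120625015-120625264 for Sirt7. Capitals mark matches, on either strand, to the GC box GGGCGG, the E-box CACGTG, the CCAAT box CCAAT or the E2F words TTTCGCGC, TTTGGCGC, TTTCCCGC and TTTGCCGC. Neighbouring matches may overlap.
Sirt1: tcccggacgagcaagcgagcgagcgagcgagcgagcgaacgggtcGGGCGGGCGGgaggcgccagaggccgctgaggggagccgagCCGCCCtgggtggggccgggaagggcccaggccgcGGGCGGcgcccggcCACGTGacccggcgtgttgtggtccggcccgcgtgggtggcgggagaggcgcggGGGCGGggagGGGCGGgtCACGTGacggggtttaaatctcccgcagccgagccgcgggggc
Sirt7: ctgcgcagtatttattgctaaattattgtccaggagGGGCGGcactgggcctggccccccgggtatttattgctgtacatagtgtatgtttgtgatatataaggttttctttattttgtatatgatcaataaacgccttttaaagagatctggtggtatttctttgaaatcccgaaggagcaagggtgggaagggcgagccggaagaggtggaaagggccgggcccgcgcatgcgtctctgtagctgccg

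The bases G and C made up 79.2% of the Sirt1 window and 48.8% of the Sirt7 window. The Sirt1 window held 6 GC boxes, between -205 and -51 from the start, and 2 E-boxes, at -115 and -43. The Sirt7 window held 1 GC box, at -214. Among 32851 mouse promoters of this length, 32.7% held a GC box and 6.02% an E-box. Neither window held the CCAAT box, present in 33.8% of promoters, or the E2F words, present in 1.86%. Of the other members, Nampt held 5 GC boxes and Parp1 3 of them with an E-box at -49. Sirt2 held 1 GC box and 2 CCAAT boxes. For Sirt3, promoter 2 held 3 GC boxes and 1 CCAAT box, and promoter 1, like that of Cd38, held no match. The GC box was thus in both printed windows, and the E-box in that of Sirt1 but not of Sirt7. These matches describe letters, not bound factors.

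No member passed the test between any pair of groups with all 9 arrays at equal weight. In limma's fit over 7436 genes, 0 of the 6 measured members passed a Benjamini-Hochberg adjusted p of 0.05 in CD4-cre against wild type, where 0.659% of all genes passed. The count was also 0 in Foxp3-cre against wild type, where 3.36% of genes passed, in Foxp3-cre against CD4-cre (0.0134% of genes) and in the mean of both knockouts against wild type (2.26%). At an unadjusted p under 0.05, 1 member each passed in CD4-cre (Sirt2), in Foxp3-cre (Parp1) and in the mean of both (Sirt2), and 0 between the knockouts. Of the 7436 genes, 1047, 1581, 1497 and 840 did so in the same order. Both knockouts were set against the same wild type arrays, so their differences are not independent. Over the members the median difference was 0.09 for CD4-cre and 0.14 for Foxp3-cre, beside 0.03 and 0.01 over all genes tested.

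**Figure D1:**
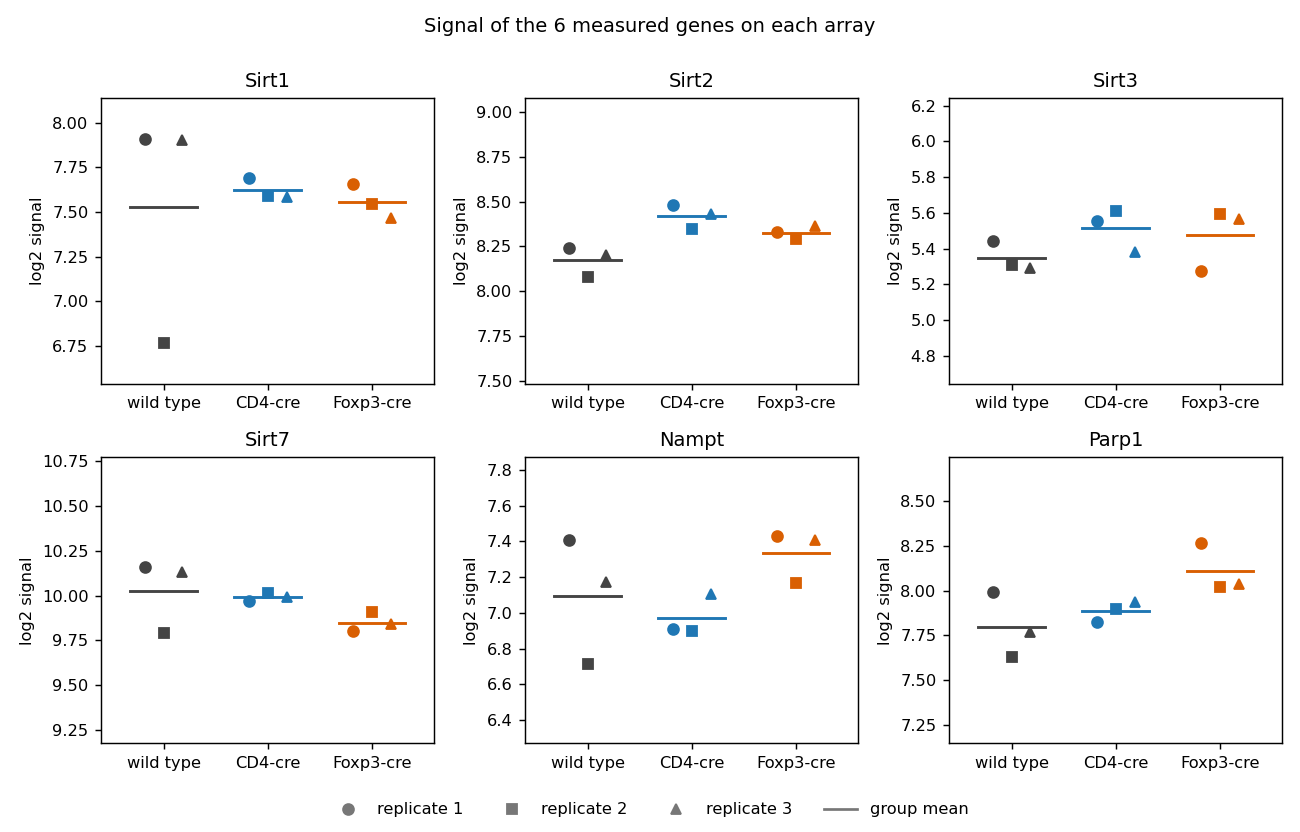
Log2 signal (vertical axes, each spanning the same 1.6 log2 units) of the 6 measured genes on every array, by group; symbols give the replicate number, which orders nothing, and lines the group means. By the brightest probe set of each gene, shown here, wild type replicate 2 (square) is the lowest of the 9 arrays for every gene but Sirt3.

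Sirt1, the NAD-dependent deacetylase whose gene was targeted, did not separate the genotypes over all arrays. Its log2 signal was 7.91, 6.77 and 7.90 on the wild type arrays, 7.69, 7.59 and 7.59 on the CD4-cre arrays and 7.66, 7.54 and 7.47 on the Foxp3-cre arrays. Both knockout groups lay below 2 of the wild type arrays and above the other, replicate 2. The group means were 7.53 ± 0.66 in wild type, 7.55 ± 0.10 in Foxp3-cre and 7.62 ± 0.06 in CD4-cre (SD, n = 3 arrays), an order in which no neighbours differed beyond the spread of wild type. The difference from wild type was 0.10 in CD4-cre, with a 95% interval of -0.49 to 0.68, and 0.03 in Foxp3-cre, with an interval of -0.56 to 0.61 (limma adjusted p = 0.882 and 0.958). The transcript is measured by 1 probe set, and if it lies outside the removed part, the probe set checks nothing about the knockout.

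Leaving out wild type replicate 2 reversed the sign for Sirt1. Without it, the signal in Foxp3-cre was lower by a difference of -0.35 (SE 0.07), or 0.784 times that of wild type, and this passed (limma adjusted p = 0.0301). In CD4-cre the difference was -0.28 and did not pass (adjusted p = 0.0730). The knockouts differed from each other by -0.07 with or without that array, with adjusted p-values above the threshold both times, so a lower Sirt1 in 1 knockout than in the other was not shown. On replicate 2 the Sirt1 signal lay 1.14 log2 units under the mean of the other wild type arrays, and 0.901% of genes were displaced as far down or farther. That array also had the lowest 5' signals of beta-actin and Gapdh relative to 3', and the part of RNA quality in its Sirt1 signal was not tested.

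Sirt7, the sirtuin of the nucleolus, was like Sirt1 called lower in Foxp3-cre when wild type replicate 2 was left out, but its sign did not reverse. It read 10.16, 9.79 and 10.13 on the wild type arrays, 9.97, 10.01 and 9.99 on the CD4-cre arrays and 9.80, 9.91 and 9.84 on the Foxp3-cre arrays. Every Foxp3-cre array lay below every CD4-cre array, while wild type spanned both through its replicate 2. Over all arrays the difference of Foxp3-cre from wild type was -0.18 (limma adjusted p = 0.344), that of CD4-cre was -0.03 (adjusted p = 0.890), and the knockouts differed by -0.14 (adjusted p = 0.667). Without wild type replicate 2, Sirt7 fell in Foxp3-cre by 0.30 (SE 0.06, adjusted p = 0.0261), to 0.814 times the wild type signal, and stood at -0.15 in CD4-cre (adjusted p = 0.171). The signal of replicate 2 lay 0.36 under the mean of the other wild type arrays, a displacement that 23.6% of genes reached.

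Sirt1 and Sirt7 were the members called in Foxp3-cre when wild type replicate 2 was left out, 2 of 6, where 7.63% of all genes were called. In the mean of both knockouts the same pair was called, at -0.32 (adjusted p = 0.0321) and -0.22 (adjusted p = 0.0446), where 5.37% of genes were called. In the fit over all probe sets without that array neither passed, with adjusted p-values of 0.0665 for both in Foxp3-cre and of 0.0683 and 0.107 in the mean. No member was called in CD4-cre (2.57% of genes) or between the knockouts (0.968%). Both genes were lower, and neither passed with all 9 arrays at equal weight.

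**Figure D2:**
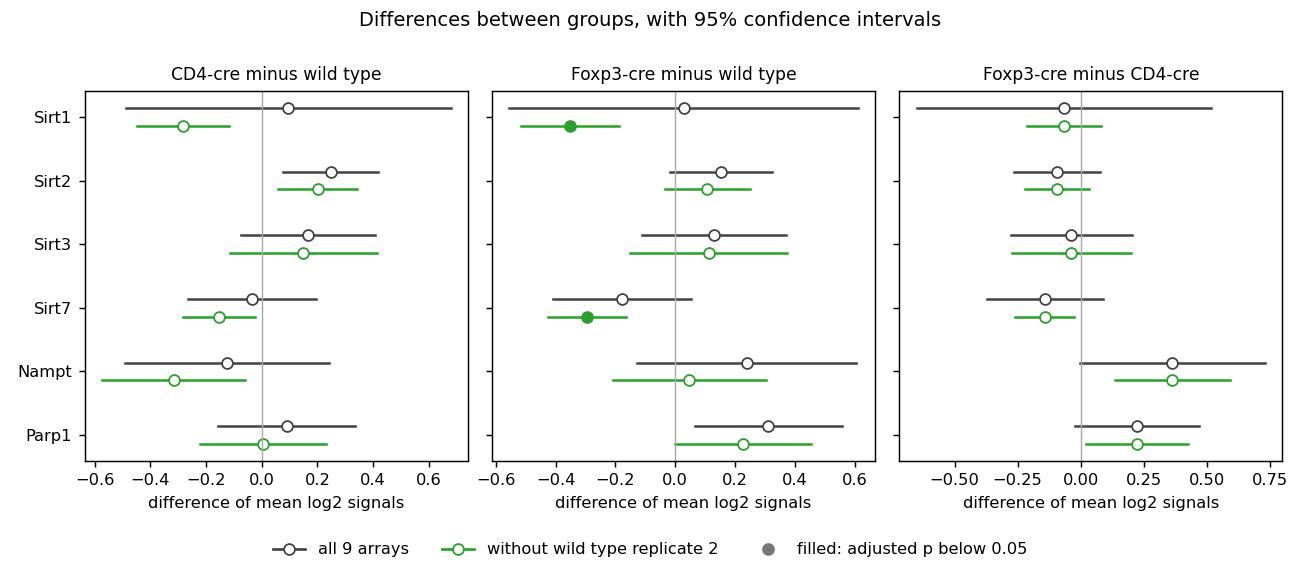
Differences of mean log2 signals (horizontal axes, whose ranges differ slightly) for the 6 measured genes in 3 comparisons, with 95% confidence intervals, from all 9 arrays (grey) and without wild type replicate 2 (green). Filled points, Sirt1 and Sirt7 in Foxp3-cre without that array, passed an adjusted p of 0.05 over all genes.

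Sirt2, a mainly cytoplasmic deacetylase known for acting on tubulin, was higher in both knockouts than in wild type on every array, without passing the test. Its signal was 8.24, 8.08 and 8.20 on the wild type arrays, 8.48, 8.35 and 8.43 on the CD4-cre arrays and 8.33, 8.29 and 8.37 on the Foxp3-cre arrays. All knockout arrays lay above all wild type arrays, and the knockouts overlapped each other. The means ran from 8.17 ± 0.08 in wild type through 8.33 ± 0.04 in Foxp3-cre to 8.42 ± 0.07 in CD4-cre (SD, n = 3). The difference from wild type was 0.25 in CD4-cre (95% interval 0.08 to 0.42, limma adjusted p = 0.197) and 0.15 in Foxp3-cre (-0.02 to 0.32, adjusted p = 0.278), neither past the threshold over all genes. Without wild type replicate 2 these were 0.20 (adjusted p = 0.115) and 0.11 (adjusted p = 0.308).

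Sirt3, the main deacetylase of mitochondria, read close to the signal of 4.979 above which genes were tested. It stood at 5.44, 5.31 and 5.29 on the wild type arrays, 5.56, 5.61 and 5.38 on the CD4-cre arrays and 5.28, 5.59 and 5.57 on the Foxp3-cre arrays. The groups overlapped in each pair, and the differences from wild type were 0.17 and 0.13 (limma adjusted p = 0.500 and 0.491), and 0.15 and 0.11 without wild type replicate 2. At this signal RMA is known to compress differences. Sirt4, another mitochondrial sirtuin, lay below the threshold on every array, at 4.28 to 4.76, and Sirt5 and Sirt6 were not analysed here.

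Nampt, the enzyme of NAD recycling, was lower in CD4-cre than in Foxp3-cre on every array, but the difference did not pass. By its brighter probe set it read 7.41, 6.71 and 7.17 on the wild type arrays, 6.91, 6.90 and 7.11 on the CD4-cre arrays and 7.43, 7.17 and 7.41 on the Foxp3-cre arrays. Wild type covered nearly the whole range by itself, from its replicate 2 at the bottom to its replicate 1 near the top. The knockouts differed by 0.36 (95% interval -0.0038 to 0.73, limma adjusted p = 0.446), and without wild type replicate 2 by the same amount with an adjusted p of 0.113. Against wild type the difference was -0.12 for CD4-cre and 0.24 for Foxp3-cre (adjusted p = 0.754 and 0.414), and without that replicate -0.32 and 0.05. The order of the means was 6.97 ± 0.12 in CD4-cre, 7.10 ± 0.35 in wild type and 7.33 ± 0.14 in Foxp3-cre (SD, n = 3), each within the spread of wild type from its neighbour.

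The other probe set of Nampt, 1448607_at, read 2.62 to 3.08, where 9.39 to 18.9% of all sets on an array read as low or lower. It lay under the signal threshold and carries no usable comparison. Wild type replicate 2 had the lowest Nampt signal of the 9 arrays, 0.58 under the mean of the other wild type arrays, and 10.8% of genes were displaced as far.

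The mean of the neutrophil markers was also higher on every Foxp3-cre array than on every CD4-cre array. The 10 listed markers (all 10 above the threshold) had a mean log2 signal of 7.78 to 8.75 for wild type, 8.23 to 9.08 for CD4-cre and 9.16 to 10.14 in Foxp3-cre, and 6 of 10 rose in Foxp3-cre against wild type. Single markers could overlap between the knockouts: Camp read 10.70 on CD4-cre replicate 3 and 10.28 on Foxp3-cre replicate 1. Csf3r, which did not pass, read 7.21 to 8.41 in Foxp3-cre beside 7.43 to 8.94 in wild type. Wild type replicate 1 held both the lowest neutrophil mean, 7.78, and a Nampt signal of 7.41, about as high as the top Foxp3-cre arrays. Monocyte and macrophage markers, with C1qc, Adgre1 and Cd14 below the threshold, had means of 6.09 to 6.59 for wild type, 5.94 to 7.13 for CD4-cre and 6.70 to 8.28 in Foxp3-cre, and 1 of 6 tested rose there. The part of these cells in the Nampt values was not tested.

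Parp1, the main poly(ADP-ribose) polymerase, was higher in Foxp3-cre than in wild type on every array of its brightest probe set. That set, 1422502_at, read 7.99, 7.63 and 7.77 on the wild type arrays, 7.82, 7.90 and 7.94 on the CD4-cre arrays and 8.26, 8.02 and 8.03 on the Foxp3-cre arrays. The Foxp3-cre arrays lay above all other arrays, and the lowest margin, from wild type replicate 1, was small. The difference was 0.31 against wild type (95% interval 0.07 to 0.56, limma adjusted p = 0.147) and 0.22 against CD4-cre (adjusted p = 0.486), and CD4-cre stood at 0.09 from wild type (adjusted p = 0.732). Without wild type replicate 2 the Foxp3-cre difference was 0.23 (adjusted p = 0.187).

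The other probe sets of Parp1 pointed the same way in Foxp3-cre. Set 1435368_a_at read 7.53, 7.70 and 7.33 on the wild type arrays, 7.44, 7.48 and 7.52 on the CD4-cre arrays and 7.82, 7.80 and 7.63 on the Foxp3-cre arrays, where wild type replicate 2 was the highest of its group and not the lowest. Set 1422503_s_at read 6.84, 6.56 and 6.85, then 6.85, 6.85 and 6.80, then 7.20, 6.90 and 6.85, in the same order of groups. Their differences in Foxp3-cre were 0.23 and 0.23, beside 0.31 for the brightest set, and 0 of the 3 passed. Without wild type replicate 2 they were 0.32 and 0.14, beside 0.23. Counted over all 9 probe sets of the members, 0 passed in any comparison of a fit over 22626 probe sets, where 0.27% of sets passed in CD4-cre, 1.11% in Foxp3-cre, 0.00442% between the knockouts and 0.796% in the mean of both knockouts.

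The mean signal of cell cycle genes was likewise highest on the Foxp3-cre arrays. The list (11 measured genes, Tyms below the threshold) had a mean log2 signal of 7.26 to 7.66 for wild type, 7.77 to 7.88 for CD4-cre and 8.01 to 8.74 in Foxp3-cre, and 5 of 10 tested rose in Foxp3-cre against wild type and 0 in CD4-cre. Foxp3-cre replicate 1 was the highest array for both Parp1 by its brightest probe set (8.26) and the list (8.74), and wild type replicate 2 the lowest for both (7.63 and 7.26). By set 1435368_a_at, wild type replicate 2 was instead the highest wild type array for Parp1, at 7.70. The part of dividing cells in the Parp1 values was not tested.

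**Figure D3:**
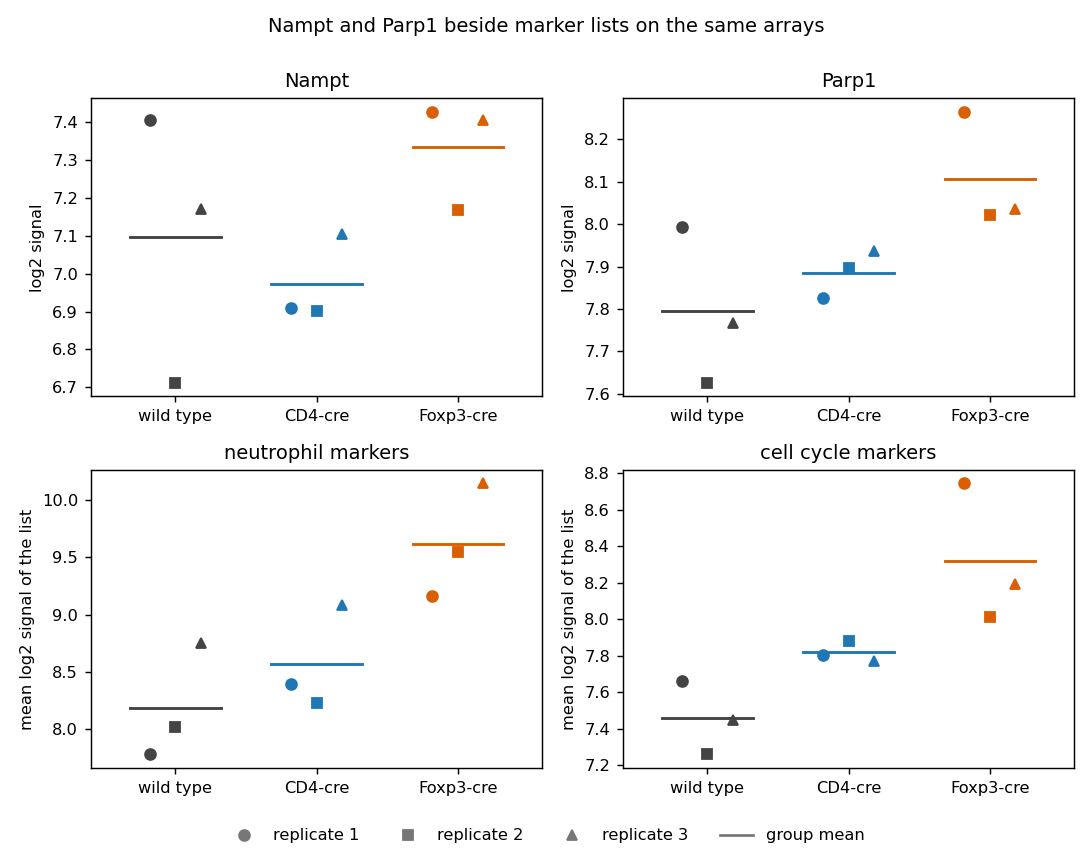
Log2 signal of Nampt and Parp1, each by its brightest probe set (top), above the mean log2 signal of the neutrophil and cell cycle lists (bottom) on the same arrays, by group, with group means as lines and the replicate number as symbol; vertical ranges differ. The Foxp3-cre arrays are the highest for Parp1 and both lists, while for Nampt they overlap wild type.

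Over the members, the arrays of the groups did not overlap for 1 of 6 genes in CD4-cre against wild type (Sirt2), where 21.0% of all genes did not overlap. The count was 2 of 6 in Foxp3-cre against wild type (Sirt2 and Parp1), beside 23.4% of genes, and 3 of 6 between the knockouts (Sirt7, Nampt and Parp1), beside 29.7%. With 6 genes, none of these counts is read as a result about the members, and the sizes behind all of them are under 0.4 log2 units.

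Among the members, Sirt1 and Sirt7 ran together over the arrays, with a Pearson correlation of 0.73 over 9 arrays and 0.80 over the 8 without wild type replicate 2. Nampt and Parp1 followed at 0.81 and 0.69. Sirt1 and Nampt, at 0.59 over 9 arrays, stood at 0.11 over 8, so that their likeness rests on replicate 2. These values describe 9 arrays that share their groups and normalization, and carry no test. Likeness to other genes was taken as the lower of the 9-array and 8-array correlations. For Sirt1 the most alike were BC002059 (0.98) and Ccng2, an unconventional cyclin (0.95), and for Sirt7 Otulinl (0.97). For Sirt2 they were Atcay and Ank (both 0.94), and for Sirt3 Cd83 (0.88) and Phykpl (0.86). For Nampt they were Zwint, a kinetochore protein (0.95), and Ssr3 (0.94), and for Parp1 Nvl and Uchl5 (0.97 and 0.96). None of these genes passed the test in either knockout against wild type. Among them, Uchl5 stood at 0.54 in Foxp3-cre (limma adjusted p = 0.0933) and Ank at 0.53 in CD4-cre (adjusted p = 0.172).

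The rest of NAD synthesis and phosphorylation was read from a list of 22 genes, of which 16 had a probe set and 6 were tested: Nadk, Nmnat3, Nnt, Pnp, Qprt and Slc25a51. In Foxp3-cre 1 of 6 rose and 0 fell, and in CD4-cre 0 passed. Nnt, the transhydrogenase of the inner mitochondrial membrane, which passes electrons from NADH to make NADPH, was the gene that rose. It read 6.99, 6.06 and 6.93 on the wild type arrays, 7.21, 7.14 and 7.20 on the CD4-cre arrays and 7.63, 7.80 and 7.88 on the Foxp3-cre arrays. The 3 groups did not overlap, with wild type lowest and Foxp3-cre highest.

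The rise of Nnt in Foxp3-cre was 1.11 (SE 0.21, limma adjusted p = 0.0277), and the difference in CD4-cre was 0.52 (adjusted p = 0.316). Without wild type replicate 2 the rise was 0.81 (adjusted p = 0.00262), and Nnt then also rose in Foxp3-cre against CD4-cre, by 0.59 (adjusted p = 0.0211). With all arrays that difference between the knockouts did not pass (adjusted p = 0.331). It passed with only the knockouts fitted (adjusted p = 0.0361) and with array weights (adjusted p = 0.00385). The other probe set of the gene, 1456573_x_at, read 6.53, 6.83 and 6.82 on the wild type arrays, 6.81, 6.79 and 6.75 on the CD4-cre arrays and 7.32, 7.59 and 7.65 on the Foxp3-cre arrays. By this set Foxp3-cre alone stood apart: it rose by 0.79 (adjusted p = 0.0156 over all probe sets), while CD4-cre differed from wild type by 0.05, and wild type replicate 2 was not low. For the mean of both knockouts the brighter set gave 0.82 (adjusted p = 0.0557, and 0.0458 with the replicate number as a block). Without wild type replicate 2 that mean was 0.52 (adjusted p = 0.0101). The call in Foxp3-cre was lost without any single array of CD4-cre, wild type replicate 3, or Foxp3-cre replicate 2 or 3, with adjusted p-values up to 0.0974. It was also lost with only wild type and Foxp3-cre fitted, at an adjusted p of 0.122. Nnt is known as a gene that is partly deleted in the C57BL/6J substrain, and the labels give no substrain.

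Of the other genes of that list, Nadk, the kinase that turns NAD into NADP, stood at 0.33 for CD4-cre and 0.29 for Foxp3-cre (limma adjusted p = 0.343 and 0.264), and at 0.16 and 0.13 without wild type replicate 2. Nmnat3, an adenylyltransferase of the last step to NAD, stood at -0.37 and -0.18 (adjusted p = 0.229 and 0.406), and at -0.32 and -0.13 without that array. The median over the 6 tested genes was 0.08 for CD4-cre and 0.12 for Foxp3-cre. The enzymes of the kynurenine route Kynu, Kmo, Haao, Ido1, Ido2 and Tdo2 were all below the signal threshold, as was Nmnat1.

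The other PARP family and ADP-ribose genes gave 16 tested of 21 listed. In Foxp3-cre 0 rose and 1 fell, and in CD4-cre 0 passed. The gene that fell was Parp14, a mono-ADP-ribosyltransferase known as a coactivator of STAT6. It read 8.68, 8.81 and 8.85 on the wild type arrays, 8.37, 8.37 and 8.49 on the CD4-cre arrays and 8.43, 8.35 and 8.21 on the Foxp3-cre arrays, with every knockout array under every wild type array. It fell by 0.45 in Foxp3-cre (SE 0.09, limma adjusted p = 0.0290) and by 0.41 in the mean of both knockouts (adjusted p = 0.0304), and stood at -0.37 in CD4-cre (adjusted p = 0.109). Leaving out wild type replicate 2 gave -0.43 (adjusted p = 0.0294), -0.39 (adjusted p = 0.0292) and -0.35 (adjusted p = 0.0675). Over all probe sets neither call held (adjusted p = 0.0538 and 0.0506), and with only wild type and Foxp3-cre fitted the adjusted p was 0.135. The knockouts overlapped for this gene, and both calls were lost without any single array of CD4-cre, wild type replicate 3, or Foxp3-cre replicate 2 or 3 (adjusted p up to 0.104 and 0.0983).

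Parp12, an interferon-induced member of the family, had its largest difference in CD4-cre. It read 6.38, 5.95 and 5.98 on the wild type arrays, 5.40, 5.48 and 5.53 on the CD4-cre arrays and 6.32, 5.90 and 5.90 on the Foxp3-cre arrays. CD4-cre lay below both other groups on every array. The difference was -0.63 from wild type (limma adjusted p = 0.105, and -0.71 with 0.0553 without wild type replicate 2), and Foxp3-cre lay 0.57 above CD4-cre (adjusted p = 0.232), so neither passed. The median over the 16 genes was 0.02 for CD4-cre and -0.07 for Foxp3-cre.

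Of the genes for NAD and nucleotides outside the cell, 4 of 13 listed were tested, Art1, Art3, Entpd1 and Nt5e, and 0 passed in any comparison. Entpd1 (CD39) and Nt5e (CD73) together turn extracellular ATP into adenosine and are known markers of Tregs. Entpd1 read 5.59, 5.78 and 5.56 on the wild type arrays, 5.35, 5.04 and 5.49 on the CD4-cre arrays and 5.16, 5.33 and 5.53 on the Foxp3-cre arrays. Its knockout arrays all lay below wild type, at -0.35 and -0.31 (limma adjusted p = 0.303 and 0.238), or -0.28 and -0.24 without wild type replicate 2. Nt5e stood at 0.07 and 0.26 (adjusted p = 0.808 and 0.267), or 0.0059 and 0.19 without it.

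Known regulators of Sirt1 were 4 tested genes of 6 listed, Ccar2, E2f1, Hic1 and Senp1, and 0 passed. E2f1, a transcription factor that can induce Sirt1, read 5.26, 5.14 and 5.19 on the wild type arrays, 5.67, 5.67 and 5.64 on the CD4-cre arrays and 5.93, 5.50 and 5.50 on the Foxp3-cre arrays. Every knockout array lay above every wild type array, and the knockouts overlapped. The differences were 0.46 and 0.45 (limma adjusted p = 0.126 and 0.0704), and 0.46 for the mean of both knockouts (adjusted p = 0.0529, and 0.0399 with the replicate number as a block). Without wild type replicate 2 they were 0.44, 0.42 and 0.43 (adjusted p = 0.0984, 0.0781 and 0.0636). E2f1 is itself a gene of dividing cells, and the means of the cell cycle list given above were higher on every knockout array than on every wild type array, with 0 of 10 of its genes called in CD4-cre. The part of dividing cells in the E2f1 values was not tested.

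Hic1, a repressor of Sirt1 transcription, read 6.85, 6.54 and 7.08 on the wild type arrays, 6.87, 6.58 and 6.76 on the CD4-cre arrays and 6.55, 6.12 and 6.37 on the Foxp3-cre arrays. Foxp3-cre was the lowest group, and 1 of its arrays overlapped wild type replicate 2. The difference was -0.48 (limma adjusted p = 0.120, and 0.0401 with the replicate number as a block), and -0.62 without wild type replicate 2 (adjusted p = 0.0378). Ccar2, an inhibitor of the SIRT1 protein, stood at 0.14 for CD4-cre and 0.05 for Foxp3-cre, and at 0.013 and -0.075 without that array.

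**Figure D4:**
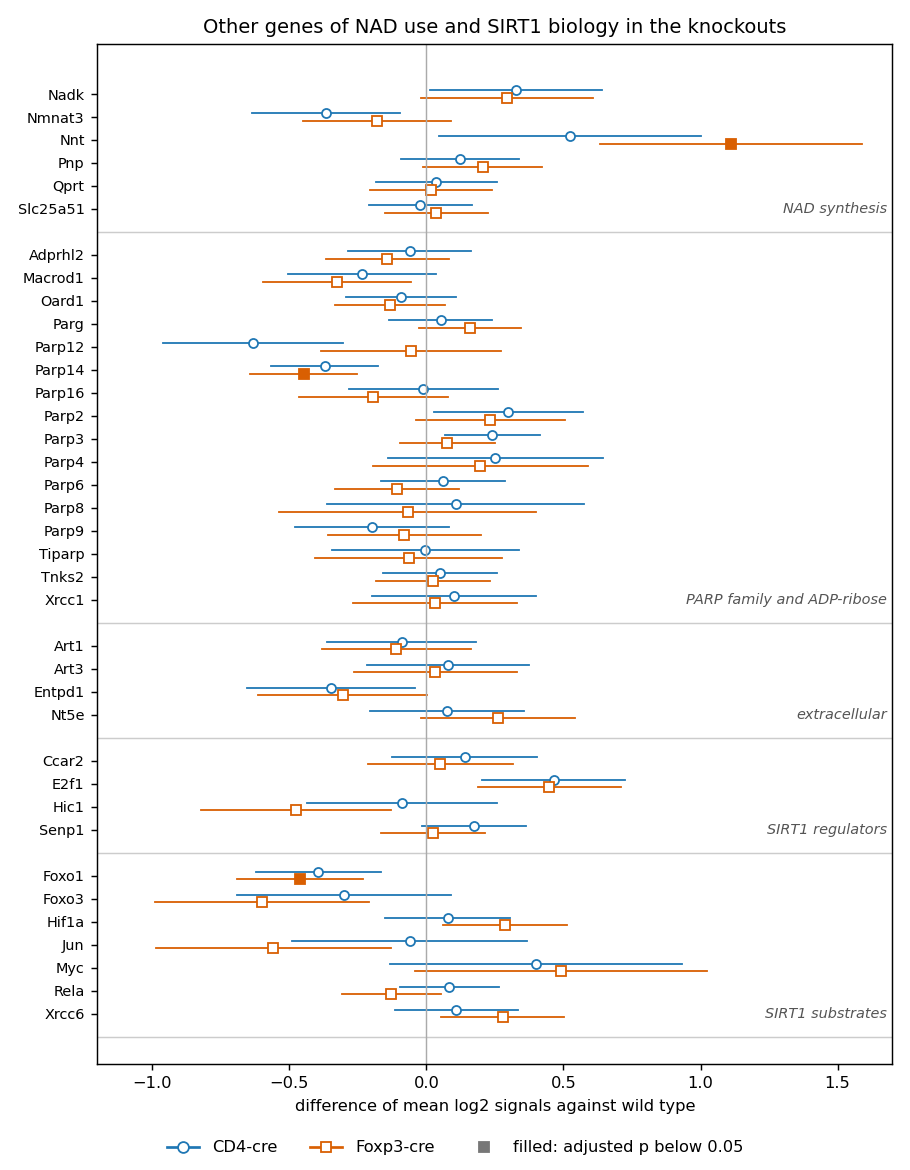
Differences of mean log2 signals against wild type (horizontal axis) with 95% confidence intervals for the tested genes of 5 lists, in CD4-cre (circles) and Foxp3-cre (squares), which share the wild type arrays; Foxp3 is left out for its size. Filled symbols passed an adjusted p of 0.05: Nnt (1.11), Parp14 (-0.45) and Foxo1 (-0.46), all in Foxp3-cre.

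Substrates of SIRT1 were 8 tested genes of 13 listed, and 2 fell in Foxp3-cre, 0 in CD4-cre. These were Foxp3 and Foxo1. Foxp3 was tested through the groups where it is high, and its Foxp3-cre signals lay under the threshold of 4.979, so the size of its fall is not measured exactly. Whether its probe set matches the Foxp3 allele of the Foxp3-cre cells was not tested, so the fall is one of signal. Foxo1, a transcription factor of T cell quiescence and homing that SIRT1 deacetylates, read 9.36, 9.72 and 9.53 on the wild type arrays, 9.06, 9.17 and 9.21 on the CD4-cre arrays and 9.13, 9.11 and 8.99 on the Foxp3-cre arrays by its brightest probe set. Both knockouts lay below wild type on every array and overlapped each other. It fell by 0.46 in Foxp3-cre (adjusted p = 0.0448) and by 0.43 in the mean of both knockouts (adjusted p = 0.0484), and stood at -0.39 in CD4-cre (adjusted p = 0.139). Leaving out that wild type array gave -0.37 (adjusted p = 0.0361), -0.33 (adjusted p = 0.0386) and -0.30 (adjusted p = 0.0839).

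The probe sets of Foxo1 disagreed about CD4-cre. Set 1416981_at, at 9.19, 9.41 and 9.37 on the wild type arrays, 9.46, 9.39 and 9.40 on the CD4-cre arrays and 8.95, 9.10 and 8.87 on the Foxp3-cre arrays, put CD4-cre at 0.09 and Foxp3-cre at -0.35 from wild type. Set 1416982_at put them at -0.22 and -0.39, and the dim set 1456529_at at 0.03 and 0.00. The 3 brighter sets shared the direction in Foxp3-cre, though none of them passed over all probe sets. Among the fits that left out 1 array, the call in Foxp3-cre was kept only without wild type replicate 1 or 2. The adjusted p reached 0.146 without the others. The call was also lost with no filter on signal (0.0651) and with only the groups compared (0.167), and was kept under the other alternatives. The call in the mean was lost in 7 of 9 fits that left out 1 array, with no filter (0.0622), with quantile normalization once more (0.0504) and with the mean of all probe sets, where the difference was -0.21 (0.0935). Jun, chosen after its values were seen, was the further substrate that fell in Foxp3-cre without wild type replicate 2, by 0.82 (adjusted p = 0.00324), against -0.56 with it (adjusted p = 0.138).

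**Figure D5:**
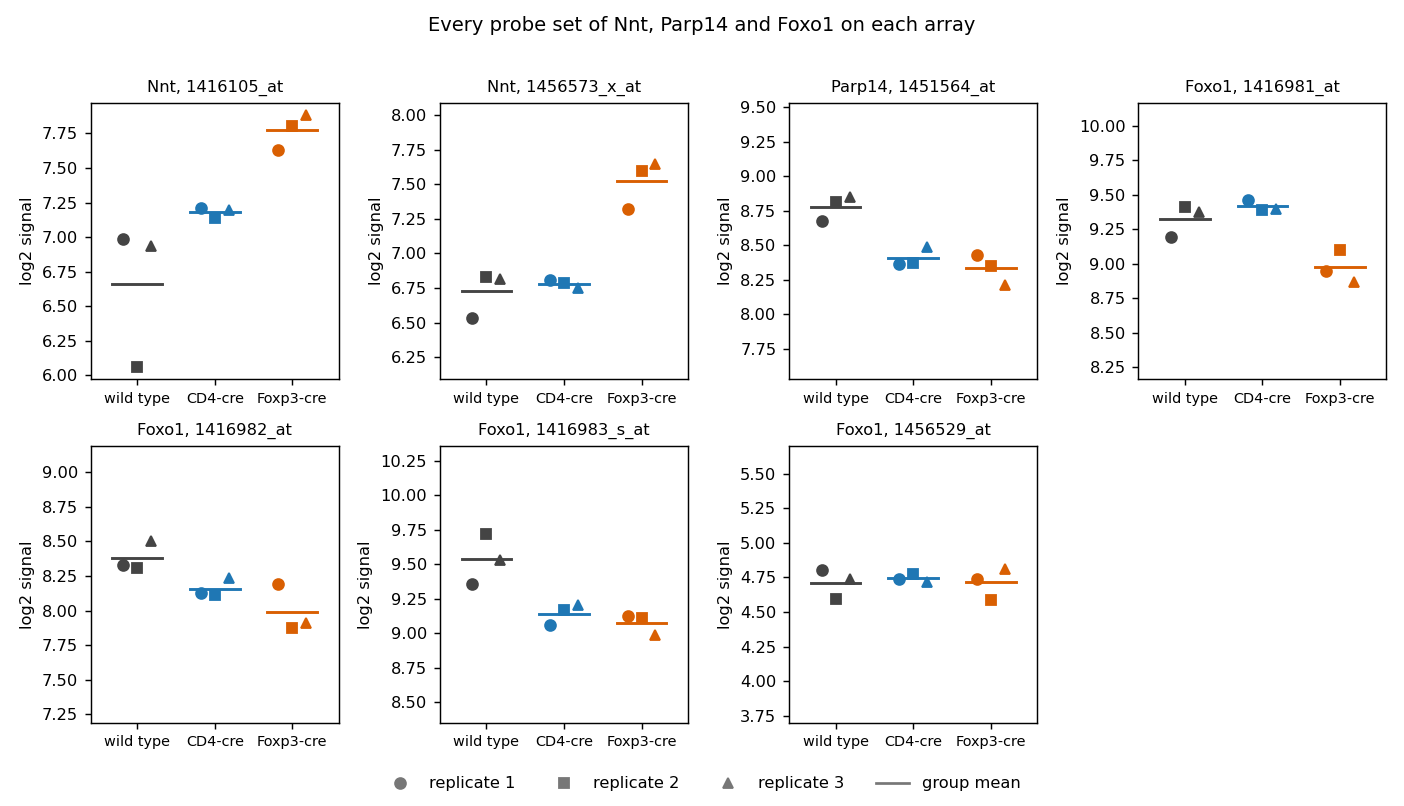
Log2 signal (vertical axes, each spanning the same 2 log2 units) of every probe set of Nnt, Parp14 and Foxo1 on each array, by group, with group means as lines and the replicate number as symbol. Both sets of Nnt are highest in Foxp3-cre, and CD4-cre lies between the groups by 1416105_at but level with wild type by 1456573_x_at.

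The Foxp3-cre differences of Nnt, Parp14 and Foxo1 sit beside the neutrophil and cell cycle means given above, which were higher on all 3 Foxp3-cre arrays than on any wild type array. The mean of the B cell markers spanned 6.15 to 7.56 over the Foxp3-cre arrays, beside 6.06 to 6.65 over those of wild type. None of the 5 tested (Pax5 and Ebf1 lay below the threshold) passed. Of the 7 markers of NK and CD8 T cells, 2 fell in Foxp3-cre, and the list mean was 6.99 to 7.46 there against 7.41 to 7.52 in wild type. The part of those cells in these differences was not tested.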

How the data were processed

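RNA from 9 arrays in 3 groups of 3 was analysed, with groups and replicate numbers from the labels. The deposited values are log2 signals per probe set, made by the authors with RMA per the submitters' processing notes. RMA subtracts background, equalises the arrays and combines the probes of each set. No source used here gives its version or a genome build. The table held 22690 probe sets, 64 of them controls. Gene names came from the platform annotation, checked by gene ID against RefSeq: 20380 probe sets had 1 symbol, 691 several and 1555 none.

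Each gene took its probe set with the highest mean, and genes at or above the 40th percentile of gene means (4.979) were tested, 7436 of 12393. limma 3.58.1 in R 4.3.3 (lmFit, eBayes) was fitted once over the 3 groups with 4 contrasts, two-sided, and genes were called at a Benjamini-Hochberg adjusted p under 0.05. Every adjusted p is limma's over all genes tested, or over 22626 probe sets where so stated. An exact test of 3 arrays against 3 cannot go below 0.1, so none was used. The code was tested on simulated data. The number of arrays limits precision: the median SE of a member's difference from wild type was 0.11.

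The members and lists were chosen with earlier results of these data known. Named genes are the members, the called genes of each list or otherwise the 2 with the largest difference, and the 2 genes most like each member, of which 1 for Sirt7 is not reported here. Alternatives left out each array, changed the filter, probe set summary, weights, normalization or groups fitted, or added the replicate number as a block. Deviations from the group means of same-numbered arrays correlated at 0.20 to 0.25 between wild type and Foxp3-cre, all over 0.1. The numbers were therefore taken to pair these groups, but only in the alternative with the block. That block was fitted over every group, so it also paired CD4-cre with both of them. The main fit, which gave the p-values unless stated, left this pairing out. In the other pairs of groups replicate 2 did not correlate (-0.01 and -0.03), but replicates 1 and 3 did. These stood at 0.12 and 0.23 between wild type and CD4-cre, and at 0.19 and 0.49 between the knockouts. Block results that involve CD4-cre, among them those for the mean of both knockouts, thus rest partly on pairs that did not correlate. The labels do not say what a number shares. No scan date or other batch was found.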

Additional observations from a re-analysis of the deposited data

Results flagged for a closer look

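Foxp3 differed between the knockouts, which share the wild type arrays: the test of Foxp3-cre against CD4-cre gave a measured value of -6.70 (limma adjusted p = 1.48e-07). The Foxp3-cre signals lay under the threshold of 4.979, and the gene was tested through the groups where it is high, so this value is not an exact size. It is a difference of signal, and the match of the probe set to the Foxp3 allele of these cells was not tested. No Foxp3-cre array overlapped any other array for this gene. The members themselves gave no such difference, and groups of 3 arrays were not tested for outlying arrays.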

How the results depend on the processing

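With array weights, members called of the 6 became 1 in CD4-cre (Sirt2), 3 in Foxp3-cre (Sirt1, Sirt7 and Parp1) and 1 between the knockouts (Nampt). They became 2 in the mean of both knockouts (Sirt1 and Sirt7). Genes called also rose, to 1298, 1539, 812 and 1604 of 7436 in the same order. The member counts are therefore not read as a result about the members. Among the member probe sets 1 was called in Foxp3-cre, and the share of all probe sets called with these weights is not reported here. Sirt1 then stood at -0.24 in CD4-cre, -0.35 in Foxp3-cre (adjusted p = 0.0380) and -0.29 in the mean (adjusted p = 0.0389), Nampt at -0.073 in the mean, Sirt3 at 0.0066 between the knockouts and Art1 at 0.073 in CD4-cre. With only the groups compared, genes called came to 22 in CD4-cre, 16 in Foxp3-cre and 55 between the knockouts. A 60th percentile filter gave 29 in CD4-cre, quantile normalization once more gave 5 between the knockouts, and the replicate block gave 96 there. The block changed no member's call, and among the other named genes it changed those of Hic1, E2f1 and Nnt given above. The mean of all probe sets put Senp1 at 0.044 between the knockouts. Leaving out 1 array gave 4 to 191 genes in CD4-cre, 71 to 567 in Foxp3-cre, 1 to 72 between the knockouts and 54 to 399 in the mean, the highest each time without wild type replicate 2. Members called ranged from 0 to 2 in Foxp3-cre and in the mean. Sirt1 ranged from -0.28 to 0.29 in CD4-cre, -0.35 to 0.22 in Foxp3-cre and -0.32 to 0.25 in the mean, Nampt from -0.32 to 0.031 in CD4-cre and -0.14 to 0.21 in the mean. Sirt7 ranged from -0.15 to 0.030 in CD4-cre, Sirt3 from -0.11 to 0.064 between the knockouts, Art1 from -0.19 to 0.059 in CD4-cre and Art3 from -0.13 to 0.053 between the knockouts. The cause of these changes was not tested. Of 182 member values under the other alternatives, 172 kept direction and side of the threshold, as did 204 of 216 leaving out 1 array. For the other named genes these were 229 of 257 and 283 of 324, and 32 of the latter lost a call, all of Nnt, Parp14 or Foxo1.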
